A study of Mus musculus with 3 samples.

Results

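The Fc gamma receptor family was followed through 3 cultures of mouse bone marrow stromal cells, each given a different preparation of extracellular vesicles. The 6 genes, chosen by symbol and not by their values, were the activating receptors Fcgr1, Fcgr3 and Fcgr4, their shared signalling adaptor Fcer1g, the inhibitory receptor Fcgr2b and the IgG transport receptor Fcgrt, out of 27179 genes in the table. The recipient cells, labelled wild type, grew in 3% oxygen and were treated for 3 days with vesicles purified from bone marrow plasma. For Ocn-EV the plasma donors were CAGS-Snorkel mice bearing the osteoblast driver Ocn-Cre. For Prx1-EV the donors were CAGS-Snorkel mice bearing Prx1-Cre, whose promoter works in the early limb skeleton. Wild-type donors gave the All-EV control. All donor mice were on the C57BL/6N background and 6 months old, and plasma of 5 mice (2 males and 3 females) was pooled for each preparation. An HA antibody on magnetic beads is described as the capture step for all 3 preparations. The labels do not say how this step took vesicles from wild-type mice, so what All-EV holds is uncertain, and it is the denominator of most ratios given here.

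Each group had 1 library, so differences between conditions cannot be tested here and carry no p-values. Depth was 14233978 reads in genes for Ocn-EV, 17269204 for Prx1-EV and 15558165 for All-EV. Levels are the deposited normalised counts, and ranges in brackets are 95% exact intervals that cover counting error only. Ratios are log2((a + 1)/(b + 1)) of these levels, and "higher" and "lower" compare single libraries. All 6 members were among the 11067 genes that averaged 50 or more over the libraries. The comparisons with All-EV share its library.

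Fc gamma receptors bind the constant part of IgG antibodies and are carried mainly by macrophages and other leukocytes. Mouse FcγRI, FcγRIII and FcγRIV assemble with the Fcer1g chain, whose cytoplasmic tyrosine motif (ITAM) is phosphorylated by Src family kinases and recruits the kinase Syk, which leads to phagocytosis and cytokine release. FcγRIIB needs no adaptor and carries an inhibitory tyrosine motif (ITIM) that recruits the phosphatase SHIP1, encoded by Inpp5d. FcRn, the product of Fcgrt, pairs with B2m and returns IgG and albumin from endosomes to the cell surface. In bone, Fcer1g also carries co-stimulatory signals of osteoclast precursors.

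The opposed roles are set by short stretches of coding sequence, read here from GENCODE vM21 transcripts of GRCm38 and written 5′ to 3′ with the codons of the motif tyrosines in capitals. The Fcer1g stretch spans bases 193 to 237 of its coding sequence and the Fcgr2b stretch bases 949 to 966, counted from the start codon.
Fcer1g ITAM: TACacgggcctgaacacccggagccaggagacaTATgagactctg
Fcgr2b ITIM: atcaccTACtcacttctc

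Fcgr3 and Fcgr2b are close relatives over much of their length. Their coding sequences matched at 634 of 687 aligned bases (92.3%), against 72.6% for Fcgr3 with Fcgr4 and 73.8% for Fcgr4 with Fcgr2b. The least different stretch of 150 bases, the length of 1 read, is shown for the pair because it bears on how reads could be told apart. It covers coding bases 241 to 390 of Fcgr3 and 256 to 405 of Fcgr2b, and the capital marks the single difference, G277T (Fcgr2b base, position in the Fcgr2b coding sequence, Fcgr3 base).
Fcgr3: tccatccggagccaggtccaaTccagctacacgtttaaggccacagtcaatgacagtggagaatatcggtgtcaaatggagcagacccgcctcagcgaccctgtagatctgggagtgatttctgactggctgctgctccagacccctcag
Fcgr2b: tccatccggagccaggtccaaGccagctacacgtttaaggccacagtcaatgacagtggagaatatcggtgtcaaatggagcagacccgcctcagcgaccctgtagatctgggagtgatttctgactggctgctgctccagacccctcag
Of the 1198 windows of 150 bases in the longest Fcgr3 transcript, 0 were identical in any Fcgr2b transcript, while 166 of 1298 windows of 50 bases were (12.8%). The deposited split of reads between this pair is therefore less certain than the other values, and the counting settings are not given in the sources used here.

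Fcgr2b, Fcgr4, Fcgr3 and Fcer1g lie within 274 kb of chromosome 1 (GRCm38, 170960558 to 171234349). Fcgr2b occupies 170960558 to 170976071, Fcgr4 171018926 to 171029761, Fcgr3 171051169 to 171065915 and Fcer1g 171229572 to 171234349. Fcgr1 lies on chromosome 3 (96282909 to 96293969) and Fcgrt on chromosome 7 (45092993 to 45103822). All 6 are annotated as protein coding.

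The levels of the receptors were read in a mixed culture. All 10 stromal markers and all 10 macrophage markers had reads in every library, and none was at 0. The macrophage list summed to 132794 with Ocn-EV, 118418 with Prx1-EV and 230468 with All-EV. Lyz2, the lysozyme gene, gave 51741, 40548 and 140306 of these, and without it the list summed to 81052, 77870.3 and 90162 in the same libraries. Of all tested genes, 13.8% were higher and 13.6% lower by 1.5-fold with Ocn-EV than with All-EV, and 12.7% were higher and 12.7% lower with Prx1-EV. With libraries set to equal totals these shares were 24.7% and 6.65% for Ocn-EV, and 22.9% and 6.51% for Prx1-EV. Of the macrophage genes, 2 were higher and 3 lower by 1.5-fold with Ocn-EV (median log2 0.13), and 2 higher and 4 lower with Prx1-EV (median 0.24). With equal totals 3 were higher and 2 lower with Ocn-EV, and 2 higher and 3 lower with Prx1-EV. As log2 ratios to All-EV in Ocn-EV and Prx1-EV, Adgre1 stood at −0.70 and −0.80 and Itgam at −1.42 and −1.60, whereas Mrc1 stood at 0.88 and 0.67 and the pan-leukocyte gene Ptprc at 0.16 and 0.24. In bulk RNA, fewer cells of a type and less RNA per cell cannot be told apart. Macrophage markers took 0.901%, 0.786% and 1.31% of all reads in Ocn-EV, Prx1-EV and All-EV, and stromal markers 0.497%, 0.326% and 0.0785%, so reads of the macrophage list exceeded those of the stromal list in cultures labelled as stromal. Without Lyz2 the macrophage share was 0.550%, 0.517% and 0.512%, so the excess of All-EV in this share rested on that gene. The stromal list summed to 73264 with Ocn-EV, 49141 with Prx1-EV and 13822 with All-EV, the same order as Fcgrt. Without the collagen genes Col1a1 and Col1a2, which gave most of it, the sums were 2835, 2112 and 1366. Of its 8 tested genes, 5 were higher and 0 lower in each comparison with All-EV (medians 1.16 and 0.70), while Lepr had only 16, 13 and 11 reads. The part of stromal or macrophage number in the receptor levels was not tested.

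Markers of B, NK, T and mast cells and of neutrophils were at or near 0. B cell markers summed to 38, 33 and 9 reads in Ocn-EV, Prx1-EV and All-EV. Cd79b gave 26, 28 and 4 of these. NK cell markers summed to 2, 1 and 3 reads, mast cell markers to 4, 2 and 0 and T cell markers to 6, 2 and 14. Neutrophil markers summed to 15, 8 and 53 reads, with Ly6g at 0 in all 3 libraries. Endothelial cells can carry FcRn, and their markers were present. They summed to 979.5, 999 and 696 normalised counts, and their part in the Fcgrt levels was not tested.

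The receptors did not divide by activating or inhibitory role. Fcgr1 and Fcgrt were higher in both cultures given vesicles of Cre mice than with All-EV, whereas Fcgr3 was lower. The Fcgr3 difference shrank with equal totals, and also once a trend on transcript length and GC content was removed. Fcer1g was lower as deposited and with equal totals, but not once a trend on transcript length and GC content was removed. Fcgr2b and Fcgr4 were lower with Prx1-EV as deposited, and both differences shrank with equal totals. Without the trend on length and GC, the Prx1-EV log2 ratio of Fcgr4 was −0.06, near the All-EV level. In Ocn-EV both genes lay near the All-EV level, below it as deposited and above it with libraries set to equal totals. Between Ocn-EV and All-EV, 2 of 6 members were at least 1.5-fold apart, against 27.4% of all tested genes, with 2 higher (13.8% of all) and 0 lower (13.6% of all). Between Prx1-EV and All-EV, 2 of 6 were apart, against 25.3% of all tested genes, with 1 higher (12.7% of all) and 1 lower (12.7% of all). Of the 6, only Fcgrt was that far apart between Ocn-EV and Prx1-EV, as were 3.54% of all tested genes, with 2.24% higher and 1.30% lower. Over all tested genes the median log2 ratio to All-EV was −0.02 in Ocn-EV and 0.00 in Prx1-EV as deposited. With libraries set to equal totals, each ratio to All-EV was larger by 0.26 for Ocn-EV and by 0.22 for Prx1-EV.

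**Figure D1:**
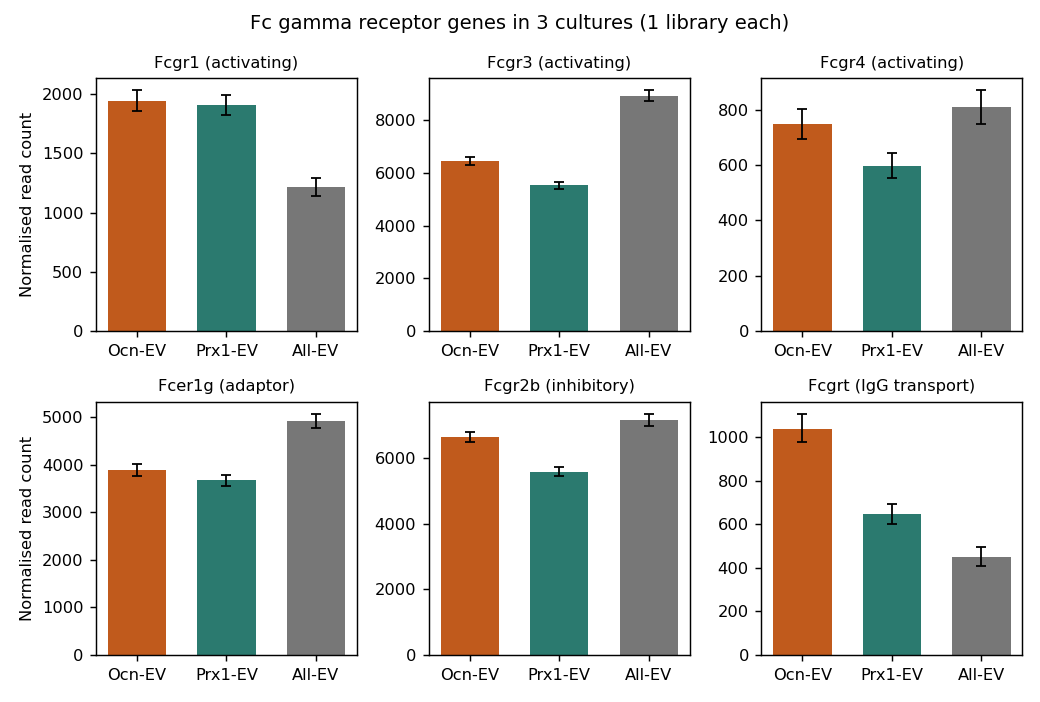
Normalised read count (vertical axis, from 0, with its own scale in each panel) of the 6 genes in the Ocn-EV, Prx1-EV and All-EV cultures, 1 library each. Bars are the deposited values and error bars are 95% exact Poisson intervals for counting error only. Fcgr1 and Fcgrt stand lowest in All-EV, and the other 4 genes stand highest there as deposited, though with equal totals Fcgr4 and Fcgr2b turn higher in Ocn-EV than in All-EV.

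Transcripts of immunoglobulin genes were present at low levels in all 3 libraries. The list holds the IgG heavy chain genes Ighg1, Ighg2b, Ighg2c and Ighg3, and also Ighm, Igkc and Jchain, which are not particular to IgG. Of the 5 tested, 0 were higher and 2 lower with Ocn-EV than with All-EV (median log2 −0.55), against 13.8% and 13.6% of all tested genes. With Prx1-EV 1 was higher and 2 were lower (median −0.46, with 1 lower at equal totals), against 12.7% each of all tested genes. In both comparisons the lower genes were Ighm and Igkc. The tested IgG heavy chain genes were within 1.5-fold, except Ighg2b with Prx1-EV. The 7 immunoglobulin and joining chain genes summed to 782 with Ocn-EV, 988 with Prx1-EV and 1436 with All-EV. Ighg2c, which encodes the constant chain of IgG2c, stood at 222, 239 and 223, and the light chain gene Igkc at 187, 233 and 388. Ighg2b was the gene that was higher with Prx1-EV, at 130.5, 322 and 191. Ighm, the IgM constant chain, stood at 143 with Ocn-EV, 119.5 with Prx1-EV and 500.2 with All-EV.

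Fcgr1 encodes the high-affinity IgG receptor FcγRI. Its level was 1939 (1853 to 2029) with Ocn-EV, 1905 (1826 to 1987) with Prx1-EV and 1213 (1142 to 1288) with All-EV. The All-EV library alone was low, and its interval did not reach those of the other libraries. The log2 ratio to All-EV was 0.68 (0.57 to 0.79) for Ocn-EV and 0.65 (0.55 to 0.76) for Prx1-EV, or 1.60-fold and 1.57-fold, with the lower end of each interval just inside 1.5-fold. Between Ocn-EV and Prx1-EV the log2 ratio was 0.03 (−0.06 to 0.12), a difference within counting error.

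Fcgr3, the low-affinity activating receptor FcγRIII, stood at 6463 (6304 to 6626) with Ocn-EV, 5533 (5398 to 5671) with Prx1-EV and 8931 (8735 to 9130.5) with All-EV. It ran opposite to Fcgr1, highest in All-EV and lowest in Prx1-EV, and the 3 intervals did not overlap. Its log2 ratio to All-EV was −0.47 (−0.51 to −0.42) for Ocn-EV and −0.69 (−0.74 to −0.64) for Prx1-EV. The Prx1-EV level was 1.61-fold lower. With libraries set to equal totals the ratios were −0.21 for Ocn-EV and −0.47 for Prx1-EV. Without the trend on length and GC they were −0.14 and −0.37, and all of these lay inside 1.5-fold.

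Fcgr4, which binds mainly IgG2a and IgG2b in mice, was the least read of the activating receptors. It stood at 747 (693 to 803) with Ocn-EV, 598 (554 to 645) with Prx1-EV and 808 (749.8 to 869.5) with All-EV. Prx1-EV was low, while the intervals of Ocn-EV and All-EV overlapped. The log2 ratio to All-EV was −0.11 (−0.27 to 0.04) for Ocn-EV, which turned to 0.14 with equal totals, and −0.43 (−0.59 to −0.28) for Prx1-EV. The Prx1-EV ratio shrank to −0.21 with equal totals and to −0.06 without the trend on length and GC. Without that trend the Ocn-EV ratio was 0.26.

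The adaptor Fcer1g stood at 3886 (3763 to 4012) with Ocn-EV, 3667 (3557 to 3780.0) with Prx1-EV and 4913 (4768 to 5061) with All-EV. Both cultures given vesicles of Cre mice were below All-EV, at log2 ratios of −0.34 (−0.40 to −0.27) for Ocn-EV and −0.42 (−0.48 to −0.36) for Prx1-EV. After a trend on transcript length and GC content over all tested genes was removed, these ratios were 0.09 and 0.04, so the direction for this short transcript depends on that step. Per kb of the longest transcript, the summed level of the 3 activating receptors was 1.08 times that of the adaptor with Ocn-EV, 0.991 times with Prx1-EV and 1.08 times with All-EV. Without division by length it was 2.35, 2.19 and 2.23 times in the same libraries, so a ratio near 1 depends on the length used.

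Fcgr2b, the inhibitory receptor, stood at 6640.2 (6479 to 6805) with Ocn-EV, 5579.7 (5444 to 5718) with Prx1-EV and 7162 (6987 to 7341) with All-EV. The order of the libraries was that of Fcgr3, and the intervals of the 3 libraries did not overlap. The log2 ratio to All-EV was −0.11 (−0.16 to −0.06) for Ocn-EV, which turned to 0.15 with libraries set to equal totals, and −0.36 (−0.41 to −0.31) for Prx1-EV. The Prx1-EV ratio was −0.14 with equal totals and −0.29 without the trend on length and GC. Ocn-EV was above Prx1-EV for Fcgr2b (log2 0.25, 0.20 to 0.30), Fcgr3 (0.22, 0.17 to 0.27) and Fcgr4 (0.32, 0.17 to 0.47).

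Fcgrt had the widest range among the 6. It stood at 1039 (975 to 1105) with Ocn-EV, 645 (599 to 693) with Prx1-EV and 450.4 (407 to 497) with All-EV. All 3 libraries were apart from each other beyond counting error, with Ocn-EV highest. The log2 ratio to All-EV was 1.20 (1.04 to 1.38) for Ocn-EV, 2.31-fold, and 0.52 (0.34 to 0.70) for Prx1-EV, 1.43-fold. The Prx1-EV ratio was 0.74 with equal totals and 0.61 without the trend on length and GC, both past 1.5-fold. Between Ocn-EV and Prx1-EV it was 0.69 (0.55 to 0.83). B2m, the light chain of FcRn and of MHC class I molecules, went the other way, at 25929 with Ocn-EV, 28727 with Prx1-EV and 51891 with All-EV, more than 1.5-fold lower in both cultures given vesicles of Cre mice.

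**Figure D2:**
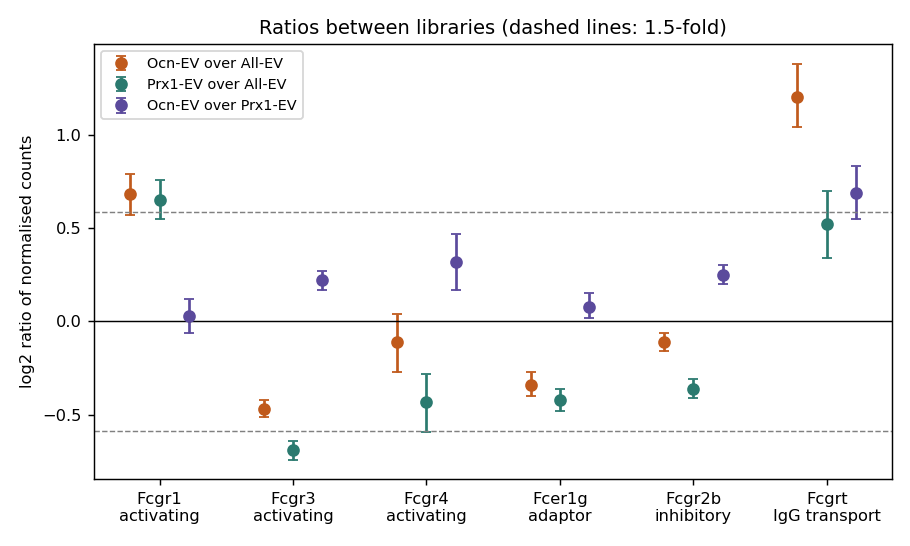
Log2 ratio of normalised counts (vertical axis) for the 6 genes in 3 comparisons of single libraries, with 95% exact intervals for counting error only and dashed lines at 1.5-fold. Fcgr1 and Fcgrt lie above 0 against All-EV, at 0.68 and 1.20 for Ocn-EV, and Fcgr3 lies lowest, at −0.47 in Ocn-EV and −0.69 in Prx1-EV. With libraries set to equal totals, Fcgr4 and Fcgr2b turn to 0.14 and 0.15 for Ocn-EV.

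Levels of different genes were compared per kb of the longest transcript. Fcer1g and Fcgr3 were the most abundant members in every library. Fcer1g had 5689.6 normalised counts per kb with Ocn-EV, 5369.6 with Prx1-EV and 7193 with All-EV, and Fcgr3 had 4798, 4108 and 6630.5 in the same libraries. Both ranked within the top 1.58% of the 10798 genes with a known length in all 3 libraries. Fcgr2b followed with 1874, 1574 and 2021 per kb, and it ranked within the top 4.50% in all 3. Its longest transcript has 3544 bases for a coding sequence of 1023 bases, so its level per kb depends on the length chosen, and per kb of coding sequence it was 6491, 5454 and 7001, still below Fcgr3 (8039, 6882 and 11109). Fcgr1 came next with Ocn-EV (749) and with Prx1-EV (736), whereas with All-EV it stood at 469, below Fcgr4 at 643 per kb. Fcgr4 (594, 552 to 639) and Fcgrt (587, 551 to 624) did not differ beyond counting error with Ocn-EV. Fcgrt was the least abundant member with Prx1-EV and with All-EV, at 364 and 254 per kb.

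The balance of activating and inhibitory receptors was read within each library, where the scaling of libraries cancels. A trend on transcript length and GC content does not cancel there, and it was not removed from these shares. Fcgr2b took 6413 of the 15249 reads of the 4 receptors with Ocn-EV, or 42.1% (41.3 to 42.8). It took 6396 of 15609 with Prx1-EV, or 41.0% (40.2 to 41.8), and 6329 of 16007 with All-EV, or 39.5% (38.8 to 40.3). By reads, the inhibitory share was thus largest with Ocn-EV and smallest with All-EV. The intervals of Ocn-EV and Prx1-EV overlapped, as did those of Prx1-EV and All-EV. Without the trend, the log2 ratios to All-EV in Ocn-EV and Prx1-EV were −0.02 and −0.29 for Fcgr2b. They were −0.14 and −0.37 for Fcgr3, closer to Fcgr2b than as deposited, so this order is not shown to hold without the trend. Per kb of the longest transcript, the summed activating level was 3.28 times that of Fcgr2b with Ocn-EV, 3.38 times with Prx1-EV and 3.83 times with All-EV. Without division by length it was 1.38, 1.44 and 1.53 times, so the size of this excess depends on the length used.

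The make-up of the activating receptors differed far more than this balance. Fcgr1 made up 21.2% (20.3 to 22.1) of activating receptor reads with Ocn-EV, 23.7% (22.8 to 24.6) with Prx1-EV and 11.1% (10.5 to 11.7) with All-EV. Fcgr3 made up 70.6% (69.7 to 71.6), 68.8% (67.9 to 69.8) and 81.5% (80.8 to 82.3) in the same libraries. Fcgr4 was at 8.16%, 7.45% and 7.38%, with overlapping intervals. The order of the inhibitory share between libraries depended on which activating receptor it was set against. With Fcgr3 left out, the Fcgr2b share was 71.2% with Ocn-EV, 69.0% with Prx1-EV and 78.0% with All-EV, the opposite direction. With Fcgr1 left out it was 47.9%, 47.6% and 42.4%. A higher relative share of Fcgr2b with vesicles of Cre mice thus rested on Fcgr3, the closer of its relatives in the aligned sequences. That share was read with the trend on length and GC left in. Per kb of the longest transcript, the Fcgr2b share was 23.4%, 22.8% and 20.7%.

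**Figure D3:**
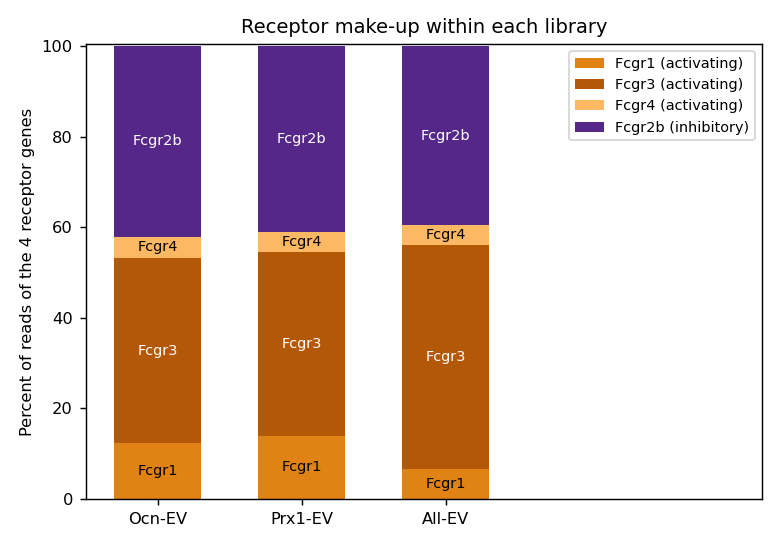
Share of the reads of the 4 receptor genes (vertical axis, percent, from 0 to 100) taken by each gene in the Ocn-EV, Prx1-EV and All-EV libraries, not corrected for transcript length. The Fcgr2b segment spans 42.1%, 41.0% and 39.5%, while the Fcgr1 segment spans 12.3%, 14.0% and 6.70%.

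The 4 members of the chromosome 1 region were all below All-EV as deposited in both comparisons, with Ocn-EV ratios between −0.47 and −0.11, though Fcgr2b and Fcgr4 turned above All-EV in Ocn-EV with equal totals. Without a trend on length and GC, Fcer1g turned to 0.09 in Ocn-EV and 0.04 in Prx1-EV, and Fcgr4 to 0.26 in Ocn-EV. The other 3 tested genes between them, Sdhc of respiratory complex II, Pcp4l1 and Tomm40l, had log2 ratios to All-EV of −0.04, 0.30 and 0.15 in Ocn-EV, and of −0.07, 0.26 and 0.22 in Prx1-EV. The most distant member from the receptor cluster, Fcer1g, lies beyond these genes.

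The 250 bases before each annotated start site (RefSeq, GRCm38.p6) were searched on both strands for the interferon gamma activated site TTCNNNGAA, the interferon response core (GAAA, any 2 bases, GAAA) and the core GAGGAAG of the myeloid factor PU.1. The activated site was present in 1 of 6 members, Fcgr1, and in 7.02% of 32851 promoters. The Fcgr1 promoter (chr3:96293970-96294219, minus strand) is shown because Fcgr1 departs from the other activating receptors, with the match at positions −109 to −101 from the start site in capitals.
Fcgr1: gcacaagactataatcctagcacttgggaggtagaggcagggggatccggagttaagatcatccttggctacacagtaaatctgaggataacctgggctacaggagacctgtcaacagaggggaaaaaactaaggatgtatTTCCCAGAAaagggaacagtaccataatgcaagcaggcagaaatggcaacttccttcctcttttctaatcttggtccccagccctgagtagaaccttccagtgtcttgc
The response core was present in Fcgr4 alone (2.98% of promoters), and the PU.1 core in Fcgr1, Fcgr3 and Fcgr4 (10.6% of promoters). The motifs do not share positions in these windows. A match of letters is a description and shows no binding.

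The counts in the lists that follow stand beside the shares of all tested genes (13.8% higher and 13.6% lower with Ocn-EV, 12.7% each with Prx1-EV, and with equal totals 24.7% and 6.65% with Ocn-EV and 22.9% and 6.51% with Prx1-EV), and pairs of log2 ratios are to All-EV, in Ocn-EV and then in Prx1-EV. Of 12 genes known to regulate Fc receptor expression, 5 were at least 1.5-fold higher and 1 was lower with Ocn-EV (median log2 0.39), and the same numbers held with Prx1-EV (median 0.31). With equal totals 6 of the 12 were higher and 1 lower in both comparisons, where 24.7% of all tested genes were higher in Ocn-EV and 22.9% in Prx1-EV. The interferon gamma receptor chain Ifngr1 stood at 1733 with Ocn-EV, 1543 with Prx1-EV and 1016 with All-EV, and its partner Ifngr2 at 1544, 1562 and 1687. C5ar1, the receptor for the complement fragment C5a, had log2 ratios of 1.20 with Ocn-EV and 0.82 with Prx1-EV. Il10ra, the interleukin 10 receptor chain, had 1.59 and 1.23, while the transcription factor Cebpb was the lower gene, at −0.89 and −1.15. The most abundant of the others, Stat6 (0.08 and 0.24), Tgfbr2 (0.46 and 0.37) and Irf8 (0.16 and 0.25), were within 1.5-fold, as was Spi1, which encodes PU.1 (0.31 and 0.26).

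Among 10 phosphatases, docking proteins and other parts that damp Fc receptor signals, 5 were higher by 1.5-fold or more in Ocn-EV (median log2 0.59) and 3 in Prx1-EV (median 0.41), with 0 lower in both. With equal totals 8 and 6 of the 10 were higher, where 24.7% and 22.9% of all tested genes were. Inpp5d, the SHIP1 gene, stood at 2610.3 with Ocn-EV, 2472 with Prx1-EV and 1487 with All-EV, log2 ratios of 0.81 (0.72 to 0.91) and 0.73 (0.64 to 0.83). The related phosphatase Inppl1 had 0.77 and 0.75, and Ptpn6, the phosphatase SHP-1, had 0.90 and 0.82. Ptpn11, the phosphatase SHP-2, stood at 0.40 and 0.41, and Cblb, a ubiquitin ligase, at −0.16 and −0.09. Per kb of the longest transcript, the level of Fcgr2b was 3.54 times that of Inpp5d with Ocn-EV and 3.14 times with Prx1-EV, against 6.71 times with All-EV.

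Other ITIM receptors showed no common direction, with 2 of 11 tested higher and 2 lower in each comparison (medians −0.11 for Ocn-EV and 0.00 for Prx1-EV). With equal totals, 3 were higher and 1 lower with Ocn-EV, and 5 higher and 2 lower with Prx1-EV. Cd72 had log2 ratios of 1.87 with Ocn-EV and 1.74 with Prx1-EV, whereas Pilra had −1.85 and −1.93 and Clec4a2 −0.69 and −1.31. The most abundant of the list, the phagocytosis checkpoint receptor Sirpa, stood at 0.50 and 0.57. Lilrb4a stood at −0.11 and 0.00, Cd300a at −0.25 and −0.20 and Pirb at −0.32 and −0.17.

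Among the kinases, the level of Syk was within 1.5-fold in both comparisons, at 6027 with Ocn-EV, 5633 with Prx1-EV and 6126 with All-EV. The Src family was mixed. Lyn (log2 0.65 with Ocn-EV and 0.40 with Prx1-EV) was above All-EV, whereas Src (−1.08 and −1.13) and Fgr (−1.79 and −1.78) were below. Tec stood at 0.40 and 0.51 and Fyn at 0.25 and 0.22. Of the 8 kinases, 2 were higher and 2 lower by 1.5-fold with Ocn-EV, and 1 higher and 2 lower with Prx1-EV. With equal totals 3 were higher and 2 lower in both. Of 15 relay proteins below Syk, 4 were higher and 0 lower in each comparison (6 and 0 with equal totals), the 4 being the phosphatidylinositol kinase subunit Pik3cd, its adaptor Pik3ap1, the ubiquitin ligase Cbl and the adaptor Sh3bp2. Among abundant relay genes, Prkcd stood at 0.10 and 0.15, Lat2 at −0.15 and 0.04 and Gab2 at −0.54 and −0.49. The medians of the relay list were 0.10 for Ocn-EV and 0.15 for Prx1-EV. Phagocytic actin regulators had 2 of 10 higher and 1 lower with Ocn-EV (median 0.19), and 3 higher and 1 lower with Prx1-EV (median 0.09). With equal totals 3 were higher and 1 lower in both. Myo1f stood at 0.74 and 0.67 and Dock2 at 0.76 and 0.83, Nckap1l at −0.11 and 0.01, Cdc42 at −0.19 and −0.18 and Arpc1b at −0.08 and −0.19, while the GTPase Rac2 stood at −1.14 and −1.20. Of the 5 oxidase subunits, which make the oxidant burst, 1 was lower with Ocn-EV and 2 with Prx1-EV (0 in both with equal totals). The catalytic subunit Cybb was at −0.75 and −0.74, its membrane partner Cyba at −0.49 and −0.40, and the cytosolic subunit Ncf1 at 0.26 and 0.25.

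Fcer1g also serves other receptors. Of 5 tested (8 listed), 4 were lower by 1.5-fold with Ocn-EV (median log2 −0.77) and 3 with Prx1-EV (median −0.83), with 0 higher. With equal totals 2 and 3 were lower. Cd300c2 stood at −0.17 and −0.05. Lilra5, listed but below the expression filter, had 58 reads with Ocn-EV, 40 with Prx1-EV and 13 with All-EV (log2 1.96 and 1.19). The C-type lectin receptor Clec4e stood at 684 with Ocn-EV, 815 with Prx1-EV and 9379 with All-EV, 13.7-fold and 11.5-fold lower. Its relatives Clec4n and Clec4d stood at 1376 and 5039 with Ocn-EV, 1143 and 4836 with Prx1-EV, and 5779.5 and 8606 with All-EV. Tyrobp, the other common myeloid adaptor, had log2 ratios to All-EV of −0.51 with Ocn-EV and −0.59 with Prx1-EV. Per kb of the longest transcript, Tyrobp stood at 1.18 times the level of Fcer1g with Ocn-EV, 1.18 times with Prx1-EV and 1.33 times with All-EV.

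**Figure D4:**
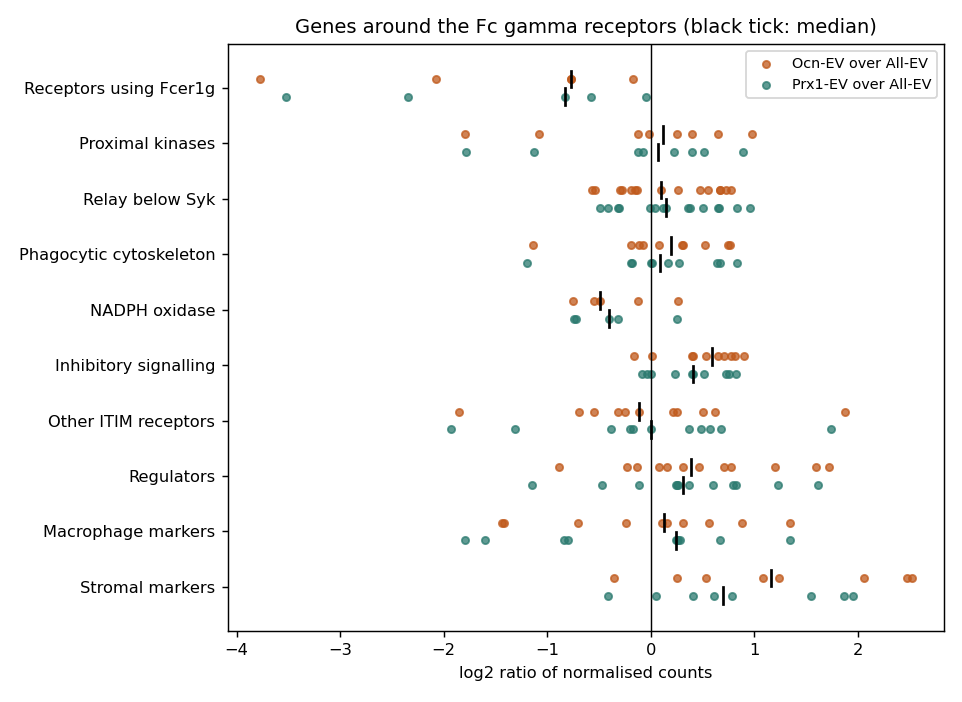
Log2 ratio of normalised counts to All-EV (horizontal axis) for the tested genes of 10 lists around the Fc gamma receptors, 1 point per gene, with Ocn-EV above and Prx1-EV below in each row and a black tick at the median. The 5 tested receptors of the list that use Fcer1g, which leaves out the Fc gamma receptors, lie left of 0, with medians of −0.77 and −0.83. Inhibitory signalling genes lie mostly right of 0, with medians of 0.59 and 0.41.

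Of 13 other Fc receptor and Fc receptor-like genes, 4 passed the expression filter, with 3 higher and 1 lower in each comparison with All-EV (0 lower in Ocn-EV with equal totals). Their medians were 1.69 for Ocn-EV and 1.61 for Prx1-EV. Fcrls had log2 ratios of 3.55 with Ocn-EV and 3.50 with Prx1-EV, and it was at 6662, 6453 and 569 in Ocn-EV, Prx1-EV and All-EV. Trim21, a cytosolic antibody receptor, had 1.23 and 1.27, and Fcrl1 had 2.16 and 1.95. Fcrlb had −0.73 and −0.87. The IgE receptor chains Fcer1a and Ms4a2 had 0 reads in all 3 libraries. A count of 0 does not show absence, and 3 reads were taken as the floor.

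Genes with the most similar pattern were sought among 10727 tested genes by distance between their pairs of log2 ratios to All-EV, which rest on 3 libraries. The nearest to Fcgr1 were Sh3bp2, Pik3ap1 and Miga1, at distances of 0.00409, 0.00941 and 0.0183. Near Fcgr3 were Nudt8, Mcee and Snx16, near Fcgr4 Rab32, Atg4d and Bbip1, near Fcer1g Dnajc4, Cep128 and Pon3, and near Fcgr2b Eno3, Akr1b3 and Ptk2. Between 97 and 302 genes lay within 0.1 of each of these 5 members, so the named ones do not stand apart. Fcgrt was in a sparser place, with 7 genes within 0.1, the nearest being the interferon-induced Gbp7 at a distance of 0.0127, then Nbl1 and Mdk.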

How the data were processed

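Messenger RNA of 3 cultures was sequenced, 1 library per group, and groups were taken from the labels. Reads were 150-base pairs, per the labels' protocols. Each deposited value is a normalised signal of 1 gene in 1 library, scaled by the authors. The submitters' processing notes list DESeq2 2.11.40.8 (a number with the form of a wrapper version), featureCounts 2.0.3, HISAT2 2.2.1, Trimmomatic 0.38.1, FastQC 0.74 and the build mm10, with no roles. Reads of overlapping genes cannot be separated, because settings and use of strand are not given in the sources used here.

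Every value (100%, tolerance 1e-06) was a whole multiple of that of 1 read in its library (1.04 in Ocn-EV, 0.872 in Prx1-EV and 1.13 in All-EV), and whole reads were recovered by division. Symbols and positions came from RefSeq GRCm38.p6, the build of mm10, for 25275 of 27179 identifiers and all 6 members. Transcript lengths came from GENCODE vM21 for 97.6% of tested genes, and coding sequences from transcripts matched to RefSeq. Ratios used a pseudocount of 1, which pulls low genes toward 0. Intervals are 95% exact (Clopper-Pearson for shares and ratios, Poisson for levels), and cover counting error only, since reads lack molecular identifiers. An exact conditional binomial test on the reads with Benjamini-Hochberg adjustment, added after the data were seen and comparing libraries rather than conditions, called 7134 of 11067 genes for Ocn-EV and 7092 for Prx1-EV, each against All-EV, and 2840 between Ocn-EV and Prx1-EV, and it set no direction in the text. The calculations were tested on simulated data.

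Named genes were the 6 members, genes of the pathway and marker lists (of each longer pathway list the 4 with the highest mean and any at least 2-fold from All-EV, with further ones allowed), and the 3 genes nearest each member. Single values of some listed genes are not reported here, while the list counts include them. The members and lists were chosen with earlier results of these data known. Marker sums without the most abundant genes were added after the data were seen. Pseudocounts, filters, equal totals, removal of a length and GC trend (cubic terms) and other receptor sets were tried. Python 3.11.15, numpy 2.4.6, scipy 1.17.1, pandas 2.3.3 and matplotlib 3.10.9 were used.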

Additional observations from a re-analysis of the deposited data

How the results depend on the processing

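No paired analysis was possible because each group has 1 library, and no replicate could be left out. Among the 18 member ratios, pseudocounts of 0.5 and 5 changed no sign and no side of 1.5-fold. Equal totals turned the Ocn-EV ratios to All-EV of Fcgr4 (0.14) and Fcgr2b (0.15), and put Fcgr3 (−0.47) inside and Fcgrt (0.74) outside 1.5-fold for Prx1-EV. Removal of the length and GC trend turned Fcgr4 for Ocn-EV (0.26) and Fcer1g for Ocn-EV (0.09) and Prx1-EV (0.04), and gave −0.37 for Fcgr3 and 0.61 for Fcgrt with Prx1-EV. For Fcgr3 with Ocn-EV the ratio was −0.21 with equal totals and −0.14 without that trend. The cause of these shifts was not tested. Genes at least 1.5-fold apart numbered 3034 for Ocn-EV and 2802 for Prx1-EV, each set against All-EV, and 392 between Ocn-EV and Prx1-EV. With a minimum mean of 200 they numbered 2000, 1841 and 76, and with no filter 7815, 7553 and 4712, as fewer or more genes were counted. A minimum of 10 gave 1354 for Ocn-EV against Prx1-EV. Equal totals put 2736 genes higher and 736 lower with Ocn-EV than with All-EV, and 2539 and 720 with Prx1-EV.

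The Fcgr2b share in Ocn-EV, Prx1-EV and All-EV was 42.1%, 41.0% and 39.5% by reads. It was 23.4%, 22.8% and 20.7% per kb of the longest transcript, and 37.9%, 37.1% and 34.7% per kb of coding sequence, a setting chosen after seeing the data. It was 71.2%, 69.0% and 78.0% without Fcgr3, 47.9%, 47.6% and 42.4% without Fcgr1, and 44.1%, 42.9% and 41.4% without Fcgr4. Among these settings, only leaving out Fcgr3 turned the order of Ocn-EV and Prx1-EV against All-EV. The shares were not recalculated without the trend on length and GC. Without that trend the log2 ratios to All-EV in Ocn-EV and Prx1-EV were 0.70 and 0.69 for Fcgr1 and −0.14 and −0.37 for Fcgr3. They were 0.26 and −0.06 for Fcgr4 and −0.02 and −0.29 for Fcgr2b. Fcgr2b thus lay closer to Fcgr3 than as deposited, and below Fcgr1 and Fcgr4, in both comparisons. The order of the shares given above is therefore not shown to hold without the trend. Each member had at least 398 reads in every library. Intervals cover counting error alone, and spread between cultures was not measured.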
